A study of Mus musculus with 12 samples.

Results

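Receptors that guide leukocytes along gradients of chemokines or of chemerin were followed in Sp37A3 cells, a dendritic cell (DC) line grown from C57BL/6 mouse spleen. The receptors were taken as a list of names: Ccr1, Ccr2, Ccr9, Ccrl2, Cxcr3, Cxcr4, Cx3cr1 and Cmklr1. All 8 were in the table of 55401 genes, and 4 of them were among the 14079 genes that passed the expression filter and were tested. RNA was sequenced in 12 libraries, 3 in each of 4 groups. Unpulsed CtrV cells carried an empty vector and were labelled as expressing Siglec-E, an inhibitory receptor for sialic acids encoded by Siglece. OVA-pulsed CtrV cells were the same line given 0.1 mg/ml ovalbumin for 2 h. Unpulsed and OVA-pulsed EKO cells were the corresponding groups of a line edited at Siglece with CRISPR-Cas9, and this line was a pool of selected clones. Cells of all 4 groups were grown with GM-CSF and M-CSF and received lipopolysaccharide (LPS), at 0.1 µg/ml for 24 h as the methods of the study give it, so no group shows cells without LPS. The empty-vector line and the pooled clones differ by more than the edited gene, and clonal and edit-related differences cannot be told apart here.

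Chemokine receptors span the membrane of the cell and signal through inhibitory G proteins, which turn a ligand gradient into directed movement. Immature DCs and their precursors carry receptors for inflammatory chemokines, such as Ccr1, Ccr2 and Cx3cr1, and DCs that mature exchange these for Ccr7, which leads them to lymph nodes. Ccrl2 is an atypical member that binds chemerin without signalling and presents it to cells with Cmklr1, the signalling chemerin receptor. Cxcr4 is the receptor of Cxcl12, Cxcr3 is that of the interferon-induced ligands Cxcl9 and Cxcl10, and Ccr9 directs cells to the gut and thymus through Ccl25.

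Library totals lay between 27116201 and 39698572 counts. The limit of detection was set at 3 counts, or 0.0785 to 0.11 CPM (counts scaled to a common normalized library size), and covers counting error only. Siglece, read as a check of the labels, had 150.2 to 163 CPM in the 6 CtrV libraries and 166 to 235 CPM in the 6 libraries labelled EKO, so its mRNA was not lower there. These are therefore called EKO-labelled. All 6 DC markers passed the filter (3 higher and 2 lower in EKO-labelled cells), with a summed level of 19422 to 22612 CPM over the 12 libraries. Most of this sum was Cd74 (13959 to 18270.4 CPM) and H2-Ab1 (2758 to 4369 CPM). Zbtb46 had 56.4 to 78.7 CPM and Flt3 0.997 to 7.85 CPM. The T cell markers Cd3e and Cd3g, the neutrophil markers Ly6g, S100a8 and S100a9, the natural killer cell markers Ncr1 and Eomes, and Ly6d and Tcf4 of plasmacytoid DCs were at 0 in every library. Other markers of these lists were read: Cd8a had 1 to 7 counts in CtrV and 3 to 43 counts in EKO-labelled libraries (22 and 43 in replicate 1), and Klrb1c had 5 to 18 counts throughout. Siglech had 3 to 11 counts in CtrV and 0 to 3 in EKO-labelled libraries, and Cox6a2 had 2 to 7 and 1 to 19 counts. The 3 B cell markers summed to 0.0358 to 0.212 CPM in CtrV and 0.45 to 1.07 CPM in EKO-labelled libraries, and the neutrophil list, of which Mmp8 alone passed the filter and did so only through EKO-labelled libraries, to 0.137 to 0.297 and 1.06 to 1.51 CPM. The 5 macrophage markers were all present and summed to 1519 to 1706 CPM in CtrV and to 2073 to 2243 CPM in EKO-labelled libraries, where Cd68, Csf1r and C1qa were higher (averaged log2 fold changes 0.46, 0.53 and 1.04) and Adgre1 and Mertk were not called (-0.01 and -0.34, edgeR adjusted p = 0.79 and 0.13). The part of these markers in the receptor differences was not tested.

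Ccr1 was by far the most abundant receptor of the 8 (plot of levels per transcript length). Per kb of annotated exon, its mean level was 145, 144, 179.9 and 170 CPM per kb in unpulsed CtrV, OVA-pulsed CtrV, unpulsed EKO-labelled and OVA-pulsed EKO-labelled cells. This was between 93.4% and 95% of the summed level of the 8 receptors in each group. Ccrl2 came next, with 4.39, 4.4, 10.2 and 9.4 CPM per kb, and Cxcr4 was the third, with 3.05, 3.41, 1.9 and 2.1 CPM per kb. The ranges of Ccrl2 and Cxcr4 overlapped in OVA-pulsed CtrV cells and were separate in the other 3 groups. Below these, the ranges of Cx3cr1 and Cxcr3 overlapped in every group. In EKO-labelled cells both lay above Ccr2, at 0.173 to 0.25 against 0.0294 to 0.0375 CPM per kb (group means). In CtrV cells Cx3cr1, Cxcr3, Cmklr1 and Ccr2 had group means of 0.0243 to 0.0673 CPM per kb, and each overlapped its neighbour in the order. Ccr9 had the lowest mean in 3 of the 4 groups, although its range overlapped that of Cmklr1 in OVA-pulsed EKO-labelled cells, and Cmklr1 was at 0 in unpulsed EKO-labelled cells.

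**Figure D1:**
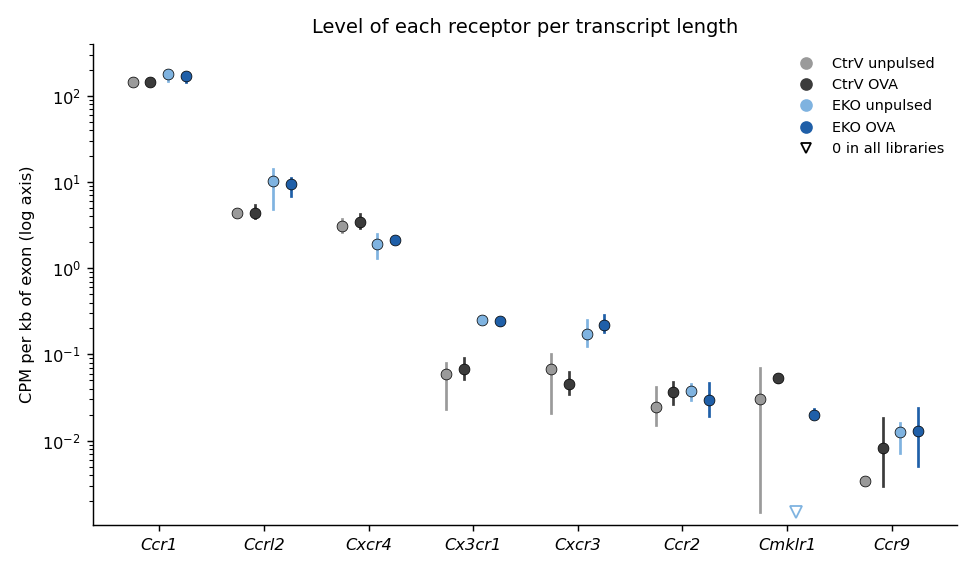
Mean level of each receptor per kb of exon (CPM per kb, logarithmic axis) in the 4 groups of 3 libraries. Vertical lines join the lowest and the highest library. The line of Cmklr1 in unpulsed CtrV cells, whose lowest library was at 0, is cut near the foot of the axis. The open triangle marks a group at 0. Ccr1, at 144 to 179.9 CPM per kb, stands above Ccrl2 and Cxcr4, at 1.9 to 10.2 CPM per kb, and the other 5 receptors lie at 0 to 0.25 CPM per kb.

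The start-site windows of the 4 tested receptors are shown because these genes moved between the lines, as described in the comparisons that follow. Each runs from 250 bases before the RefSeq transcription start to 50 bases after it (GRCm38.p6), and capitals mark matches on either strand to GGGANNNNCC, a loose form of the NF-kB consensus, and to AGGAAG, the core bound by the myeloid factor PU.1. All 4 genes lie on the minus strand. The windows are chr9:123968643-123968942 for Ccr1, chr9:111057469-111057768 for Ccrl2, chr1:128592250-128592549 for Cxcr4 and chr9:120068247-120068546 for Cx3cr1.
Ccr1: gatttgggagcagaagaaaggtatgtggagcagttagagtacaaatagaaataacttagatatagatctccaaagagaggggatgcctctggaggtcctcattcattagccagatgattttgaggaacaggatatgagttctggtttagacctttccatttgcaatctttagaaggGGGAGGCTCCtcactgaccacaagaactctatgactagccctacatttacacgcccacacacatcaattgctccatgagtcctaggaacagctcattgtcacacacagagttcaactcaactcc
Ccrl2: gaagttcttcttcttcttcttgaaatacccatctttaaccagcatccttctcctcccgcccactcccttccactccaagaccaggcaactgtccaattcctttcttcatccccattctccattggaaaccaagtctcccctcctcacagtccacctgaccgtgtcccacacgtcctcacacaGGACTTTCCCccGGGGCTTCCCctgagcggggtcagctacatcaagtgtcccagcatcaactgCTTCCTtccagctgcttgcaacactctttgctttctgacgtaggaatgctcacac
Cxcr4: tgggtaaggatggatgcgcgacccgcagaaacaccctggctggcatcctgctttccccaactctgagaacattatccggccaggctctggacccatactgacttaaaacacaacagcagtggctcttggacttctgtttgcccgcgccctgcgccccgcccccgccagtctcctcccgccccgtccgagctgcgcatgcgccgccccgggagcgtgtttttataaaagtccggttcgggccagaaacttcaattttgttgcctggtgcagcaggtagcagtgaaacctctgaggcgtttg
Cx3cr1: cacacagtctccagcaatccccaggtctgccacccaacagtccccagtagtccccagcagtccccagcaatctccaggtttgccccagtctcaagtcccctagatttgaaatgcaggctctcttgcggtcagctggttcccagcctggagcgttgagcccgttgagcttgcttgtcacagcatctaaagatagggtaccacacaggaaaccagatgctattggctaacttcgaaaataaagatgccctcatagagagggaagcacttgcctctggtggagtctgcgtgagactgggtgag
The Ccrl2 window held 2 matches to GGGANNNNCC, GGACTTTCCC at 68 and GGGGCTTCCC at 56 bases before the start, separated by 2 bases. Of all 32851 RefSeq windows of this length, 20.7% had at least 1 match and 3.66% at least 2. Ccr1 had 1 match, GGGAGGCTCC at 74 bases before the start, and Cxcr4 and Cx3cr1 had none. AGGAAG, on either strand, was met in the Ccrl2 window alone of these 4, against 35.4% of all windows. GAAANNGAAA, the interferon-stimulated response element (3.44% of windows), TGANTCA, bound by AP-1 (7.81%), and TTCNNNGAA, bound by STAT proteins (8.3%), had no match in the 4 windows. A match describes the letters in the window, not a bound site. Ccrl2 has 3 RefSeq starts, and the window nearest to the annotated gene start is shown; the Cx3cr1 start lies 1583 bases inside the annotated gene.

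The first question was whether the receptors differed between the lines. Of the 4 tested receptors, Ccr1, Ccrl2 and Cx3cr1 were higher and Cxcr4 lower in the EKO-labelled line, with and without OVA. In OVA-pulsed cells 47.0% of all tested genes differed (25.1% higher and 21.9% lower), in unpulsed cells 46.4% (24.5% higher and 21.9% lower) and averaged over pulsing 60.5% (31.3% higher and 29.1% lower), so a call was common for any gene. Cx3cr1 passed the filter only through its EKO-labelled libraries, and the count of 4 is given as a description. In bulk RNA, more cells with a receptor and more RNA per cell cannot be told apart. All p-values are adjusted over all tested genes (Benjamini-Hochberg) in the quasi-likelihood fit of edgeR. They measure the spread between these samples, since the labels do not say whether replicates were separate cultures. Averaged values treat unpulsed and OVA-pulsed libraries of a line as separate samples, with a replicate term common to both lines. In EKO-labelled cells, libraries of the same number deviated together over genes (r = 0.711, 0.357 and 0.424). Averaged standard errors and p-values, and the share of 60.5%, may therefore be too favourable.

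Ccr1 (ENSMUSG00000025804, chromosome 9 from 123962124 to 123968692), the receptor of Ccl3 and Ccl5, was measured at 395, 382 and 456 CPM in unpulsed CtrV replicates 1, 2 and 3, and at 401, 395 and 426 CPM in the OVA-pulsed ones. The EKO-labelled line had 423, 546 and 560.2 CPM unpulsed, then 414, 519 and 511 CPM after OVA. Replicate 1 of the EKO-labelled line was the lowest in both of its groups and fell within the CtrV range, while replicates 2 and 3 were above every CtrV library. The group means were 411 ± 39.8 and 509.5 ± 75.4 CPM in unpulsed cells, against 407 ± 16.7 and 482 ± 58.5 CPM after OVA (SD, n = 3). The log2 fold change was 0.23 (standard error 0.08, 95% confidence interval 0.05 to 0.42, edgeR adjusted p = 0.039) in OVA-pulsed and 0.30 (0.08, interval 0.12 to 0.49, adjusted p = 0.012) in unpulsed cells. Averaged over pulsing it was 0.27 (standard error 0.06, edgeR adjusted p = 0.0024), a level 1.20 times as high. Without the replicate number in the model the separate calls were lost, at 0.24 (edgeR adjusted p = 0.13) and 0.31 (0.055), and the averaged call was kept, at 0.28 (0.014). In OVA-pulsed cells the call was also lost without OVA-pulsed CtrV replicate 2 (0.18, adjusted p = 0.20) or 3 (0.20, 0.14), OVA-pulsed EKO-labelled replicate 2 (0.16, 0.20) or 3 (0.25, 0.080), or unpulsed EKO-labelled replicate 3 (0.23, 0.052), all by edgeR. In unpulsed cells it was lost without unpulsed CtrV replicate 2 (0.22, adjusted p = 0.076) or unpulsed EKO-labelled replicate 2 (0.25, 0.063) or 3 (0.28, 0.050).

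**Figure D2:**
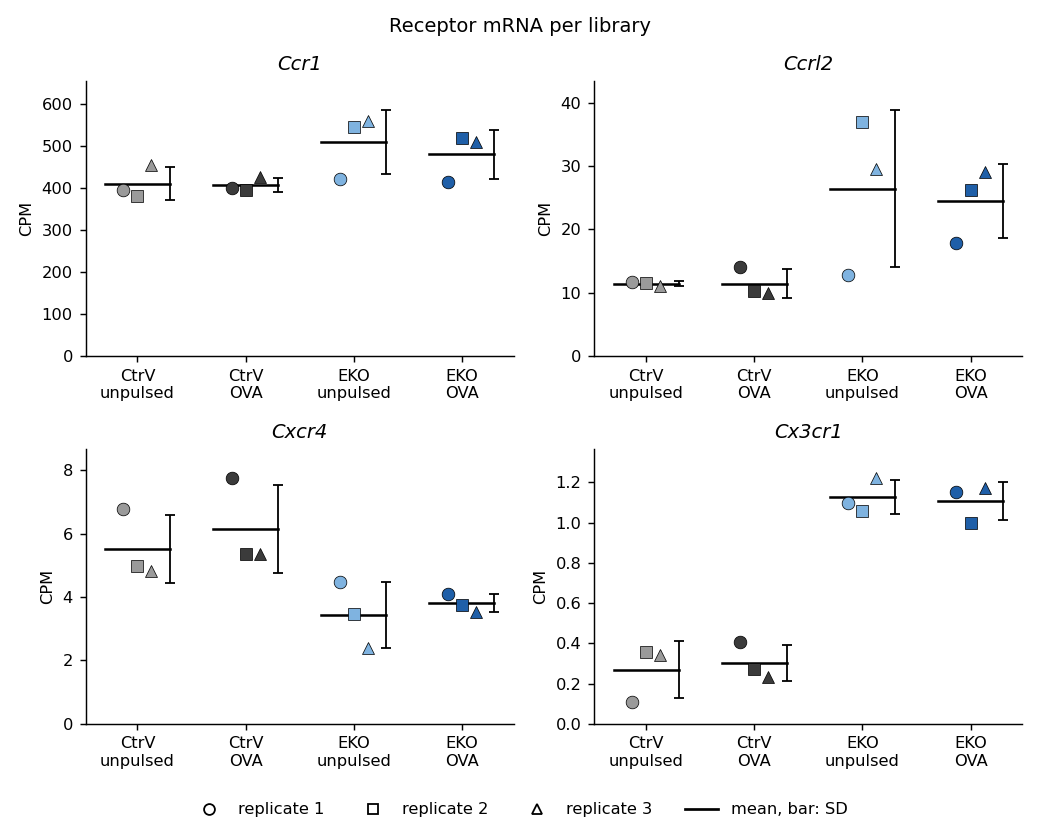
Level of the 4 tested receptors in each of the 12 libraries (CPM, linear axes from 0), with the replicate shown by the symbol and the group mean ± SD (n = 3) in black. Cxcr4 and Cx3cr1 do not overlap between the lines, as is true of 35.6% of all tested genes. EKO-labelled replicate 1 lies near the CtrV libraries in Ccr1 and Ccrl2, at 414 to 423 and at 12.8 to 17.9 CPM.

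Ccrl2 (ENSMUSG00000043953, chromosome 9 from 111054486 to 111057519), which presents chemerin, had 11.7, 11.6 and 11.0 CPM in unpulsed and 14.1, 10.3 and 9.91 CPM in OVA-pulsed CtrV cells. Unpulsed EKO-labelled cells had 12.8, 36.9 and 29.6 CPM, and OVA-pulsed EKO-labelled cells 17.9, 26.3 and 29.1 CPM. EKO-labelled replicate 1 again stood apart: without OVA it was close to the CtrV libraries, and replicates 2 and 3 were clearly higher. The log2 fold change was 1.04 (standard error 0.29, interval 0.39 to 1.69, edgeR adjusted p = 0.014) in OVA-pulsed and 1.16 (0.30, interval 0.50 to 1.83, adjusted p = 0.0090) in unpulsed cells, and 1.10 (0.21, adjusted p = 0.0010) on average. Between libraries of the same number the log2 difference was 0.34, 1.34 and 1.54 with OVA and 0.13, 1.66 and 1.43 without OVA, so it was positive in all 6 pairs and small in those of replicate 1. Without both libraries of EKO-labelled replicate 1, the log2 fold changes were 1.38 (edgeR adjusted p = 1.4e-05) and 1.63 (3.9e-06). That fit was chosen after these values were seen and drops the lowest EKO-labelled library of each group. A larger difference had to follow, so its values and p-values are not separate support. The call in OVA-pulsed cells was lost without OVA-pulsed CtrV replicate 2 (0.83, adjusted p = 0.084) or 3 (0.86, 0.076) or OVA-pulsed EKO-labelled replicate 3 (0.90, 0.064), and that in unpulsed cells without unpulsed EKO-labelled replicate 2 (0.85, edgeR adjusted p = 0.055).

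Cxcr4 (ENSMUSG00000045382, chromosome 1 from 128588199 to 128592293), the receptor of Cxcl12 that retains cells in bone marrow and at sites of its ligand, moved the other way. Unpulsed CtrV libraries had 6.77, 4.98 and 4.81 CPM, and OVA-pulsed ones 7.75, 5.35 and 5.37 CPM. The levels were 4.47, 3.46 and 2.39 CPM in unpulsed EKO-labelled libraries and 4.11, 3.76 and 3.54 CPM in the OVA-pulsed ones. Every EKO-labelled library was below every CtrV library, which 35.6% of all tested genes also showed in either direction, and replicate 1 was the highest in each of the 4 groups. The log2 fold change was -0.69 in both comparisons, with a standard error of 0.12, an interval of -0.96 to -0.42 and an edgeR adjusted p of 0.00097 in OVA-pulsed cells. In unpulsed cells the standard error was 0.13, the interval -0.98 to -0.41 and the adjusted p 0.0013. The averaged value was -0.69 (standard error 0.09, edgeR adjusted p = 6.1e-05), so CtrV cells had 1.61 times the level of EKO-labelled cells. This call was kept without each library in turn, at -0.77 to -0.55 in OVA-pulsed cells and in unpulsed cells alike.

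Cx3cr1 (ENSMUSG00000052336, chromosome 9 from 119901616 to 120069879), the receptor of fractalkine and a marker of monocytes and of the DCs and macrophages that derive from them, showed the largest fold change of the 4. It rested on few reads, and the gene entered the test only through its EKO-labelled libraries, where it is high. In CtrV cells 3, 10 and 10 reads were counted without OVA and 15, 9 and 7 with OVA, which corresponds to 0.106 to 0.405 CPM. EKO-labelled cells had 30, 32 and 40 counts without OVA and 44, 31 and 38 with OVA, or 0.997 to 1.22 CPM. The lines did not overlap, which 35.6% of all tested genes also showed in either direction. EKO-labelled replicate 1 did not stand apart here. The summed macrophage markers were also higher in every EKO-labelled library, through 3 of the 5 genes, and their part was not tested. The log2 fold change was 1.83 (standard error 0.30, interval 1.16 to 2.50, edgeR adjusted p = 0.00057) in OVA-pulsed cells, 2.05 (0.33, interval 1.32 to 2.78, adjusted p = 0.00048) in unpulsed cells and 1.94 (0.22, adjusted p = 2.5e-05) on average, a level 3.84 times as high. Leaving out each library in turn gave 1.62 to 2.16 and 1.63 to 2.36, with edgeR adjusted p-values of at most 0.0048. With no expression filter, the values were 1.81 (edgeR adjusted p = 2.9e-05) and 2.05 (1.8e-05). That fit used the same libraries and estimated the spread over 28881 genes, so its p-values are not separate support. The receptor list itself was chosen with earlier results of these data known.

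**Figure D3:**
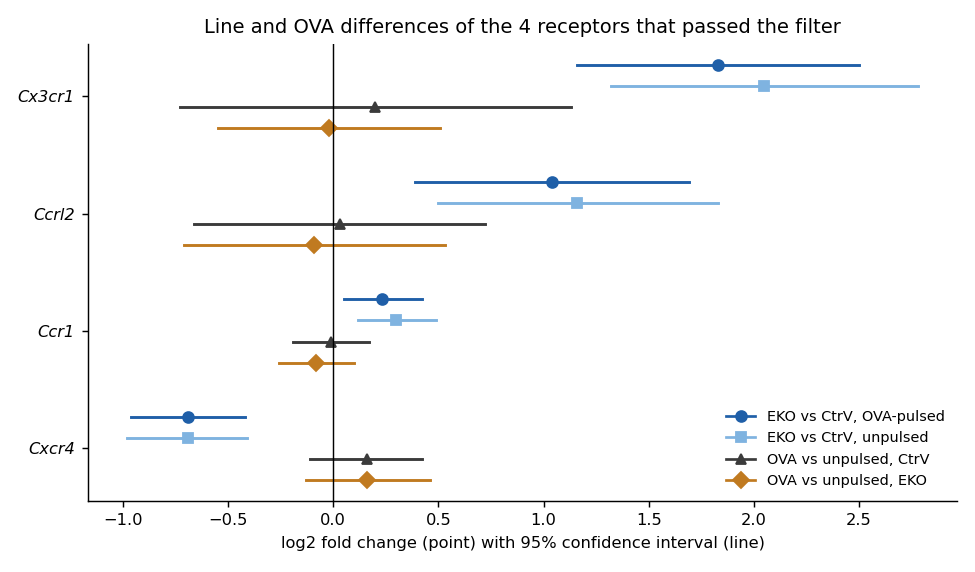
Log2 fold changes (points) with 95% confidence intervals (lines) of the 4 tested receptors, for the lines compared with and without OVA and for OVA compared within each line. The intervals of both line comparisons lie to the same side of 0 for each receptor, and those of both OVA comparisons include 0.

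The other 4 receptors stayed below the filter and near the limit of detection. Cxcr3 (ENSMUSG00000050232, chromosome X from 101731535 to 101734269), carried mainly by T cells and natural killer cells and also by some DCs, had 5, 1 and 4 counts in unpulsed and 4, 2 and 2 in OVA-pulsed CtrV cells. It had 7, 13 and 7 counts in unpulsed and 12, 10 and 16 in OVA-pulsed EKO-labelled cells. Every EKO-labelled library, at 0.214 to 0.492 CPM, was above every CtrV library, at 0.0358 to 0.176 CPM. Of the tested genes, 35.6% were likewise without overlap in either direction, and this share was not taken for genes below the filter. When all 28881 genes with a count were tested without the filter, the log2 fold change of Cxcr3 was 1.74 on average (standard error 0.40, edgeR adjusted p = 0.0010), where 31.0% of genes differed. It was 2.16 in OVA-pulsed cells (0.56, adjusted p = 0.0044; 23.2% of genes differed) and 1.33 in unpulsed cells (0.57, adjusted p = 0.10; 22.5%).

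Cmklr1 (ENSMUSG00000042190, chromosome 5 from 113612354 to 113650426), through which chemerin signals, was read 2, 0 and 7 times in unpulsed CtrV libraries and 6, 6 and 6 times in OVA-pulsed ones. OVA-pulsed EKO-labelled libraries had 3, 2 and 2 counts, and no read was counted in the 3 unpulsed EKO-labelled libraries, which allows up to 0.0918 to 0.11 CPM in each. Without the filter, the edgeR adjusted p was 0.046 in unpulsed, 0.28 in OVA-pulsed and 0.013 in averaged cells, with fewer reads in EKO-labelled cells each time. In these fits 22.5%, 23.2% and 31.0% of all genes differed. No fold is given, since several libraries of both lines were at or under the limit of 3 counts. The direction was opposite to that of its partner Ccrl2, the more abundant chemerin receptor. For Cmklr1 it rested on 0 to 7 counts per library and was not called in OVA-pulsed cells.

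Ccr2 (ENSMUSG00000049103, chromosome 9 from 124101950 to 124113557), the receptor of Ccl2 that monocytes use to leave bone marrow, had 3 to 12 counts in CtrV and 4 to 12 counts in EKO-labelled libraries. Its groups overlapped throughout, from 0.164 ± 0.102 CPM in unpulsed CtrV to 0.254 ± 0.054 CPM in unpulsed EKO-labelled cells (SD, n = 3). Ccr9 (ENSMUSG00000029530, chromosome 9 from 123678439 to 123784330) had 1 count in each of 5 CtrV libraries, 7 counts in OVA-pulsed CtrV replicate 1, and 2 to 8 counts in the EKO-labelled libraries. Neither passed an adjusted p of 0.05 in a line comparison without the filter, and at these counts a moderate difference was not detectable. Of the 50-base stretches in its transcripts, Ccr2 shares 1.91% with other genes, and Ccr9 shares 2.13% and 19.0% of its exon bases overlap genes of the opposite strand, so single reads of these 2 genes are uncertain. Cx3cr1 shares 0.269% of its stretches, with 1.7% of its exon bases overlapping a gene of the opposite strand, and Cmklr1 shares 0.15%. For Ccr1, Ccrl2, Cxcr3 and Cxcr4 no such stretch was shared.

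**Figure D4:**
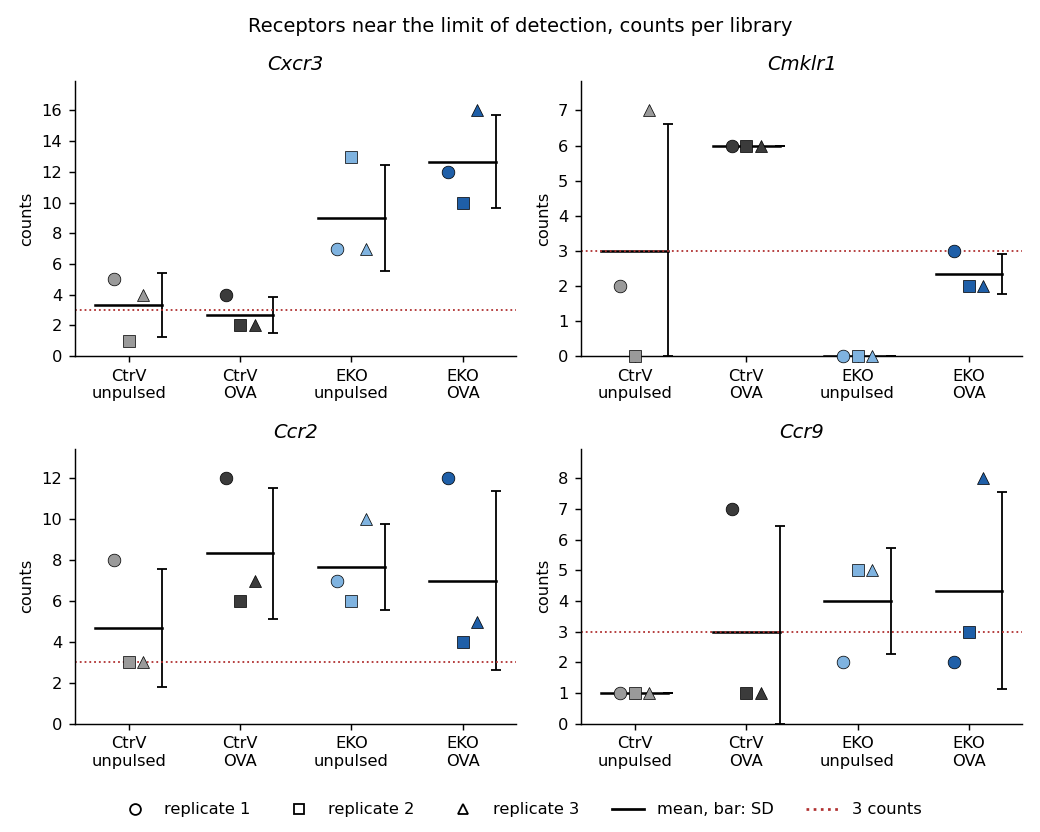
Read counts of the 4 receptors below the filter in each of the 12 libraries (linear axes from 0), with the replicate shown by the symbol, the group mean and SD (n = 3, cut at 0) in black and the limit of 3 counts dotted. The EKO-labelled libraries lie above the CtrV libraries in Cxcr3 and at 0 to 3 counts in Cmklr1, and the lines overlap in Ccr2 and Ccr9.

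A second comparison asked whether OVA pulsing altered the receptors in cells that all received LPS. No tested receptor was called with OVA in either line, and neither was any other tested gene: 0.0% of the 14079 genes were called in CtrV cells, 0.0% in EKO-labelled cells and 0.0% for a dependence of the line difference on pulsing. At an unadjusted p under 0.05, edgeR gave 231, 394 and 269 genes in these comparisons (1.64%, 2.8% and 1.91%), DESeq2 44, 156 and 103, and limma voom 246, 423 and 297, with 0 called after adjustment by each tool. The replicate term is common to both lines, while EKO-labelled libraries of the same number deviated together. The p-values for OVA and for the dependence on pulsing may therefore be too large. With the 6 EKO-labelled libraries alone, 743 of 13704 genes (5.42%) had an edgeR p under 0.05, and 0 were called. The log2 fold change of Ccr1 with OVA had an interval of -0.19 to 0.17 in CtrV cells and -0.26 to 0.10 in EKO-labelled cells, the narrowest of the 4 receptors. Cxcr4 had 0.16 in each line (intervals -0.11 to 0.42 and -0.13 to 0.46). For Ccrl2 the intervals ran from -0.66 to 0.72 and from -0.71 to 0.53, and for Cx3cr1 from -0.73 to 1.13 and from -0.55 to 0.51, so that larger differences in either direction remained within these intervals. The line differences with and without OVA differed by -0.07 for Ccr1, -0.12 for Ccrl2, 0.01 for Cxcr4 and -0.22 for Cx3cr1 on the log2 scale (standard errors 0.12, 0.42, 0.18 and 0.48; edgeR adjusted p = 1.0 each).

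Among 17 other chemokine and chemerin receptors, 6 passed the filter. Averaged over pulsing, 5 of these were higher, 0 lower and 1 was not called, where 31.3% of all tested genes were higher. Since 3 of the 5, Ccr4, Ccr10 and Xcr1, passed the filter only through their EKO-labelled libraries, the count is a description. In OVA-pulsed cells 5 were higher and 0 lower, where 25.1% of all tested genes were higher and 21.9% lower. In unpulsed cells 4 were higher and 0 lower, where these shares were 24.5% and 21.9%. Ccr4, which binds Ccl17 and Ccl22, rose from 0.134 to 1.38 CPM (log2 fold change 3.32, standard error 0.34, edgeR adjusted p = 1.0e-05). Its highest libraries were those of EKO-labelled replicate 1, at 2.09 and 2.20 CPM, against 0.515 to 1.54 CPM in replicates 2 and 3. Ccr10, the receptor of Ccl27 and Ccl28, rose from 0.313 to 2.71 CPM (3.10, 0.19, adjusted p = 2.1e-07), and Xcr1, a marker of type 1 conventional DCs, from 0.321 to 1.10 CPM (1.77, 0.17, 6.5e-06). Cxcr5, the receptor of Cxcl13, rose from 1.6 to 2.64 CPM (0.73, standard error 0.10, edgeR adjusted p = 0.00013).

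Ccr7, the receptor that mature DCs use to reach lymph nodes, varied widely, with 50.4 to 182 CPM in CtrV and 118 to 534 CPM in EKO-labelled libraries. It was higher in OVA-pulsed cells (log2 fold change 1.96, standard error 0.52, edgeR adjusted p = 0.010) and not called in unpulsed cells (0.72, 0.52, adjusted p = 0.29), and the difference between these values was not called (1.24, standard error 0.74, adjusted p = 1.0). EKO-labelled replicate 1 was the highest library of its group in Ccr7, at 404 CPM without and 534 CPM with OVA, as in Cxcr4 and Ccr4, and the lowest in Ccr1 and Ccrl2. Ccr6, the receptor of Ccl20, was not called (0.03, interval -0.73 to 0.78, edgeR adjusted p = 0.95). Of the 11 that did not pass, 8 had at most 3 counts in every library and 4 of these had none. Ackr2, which scavenges inflammatory CC chemokines, was read 0 to 5 times in CtrV and 4 to 17 times in EKO-labelled libraries.

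Most tested ligands of the 8 receptors were higher in EKO-labelled cells. Of the 14 ligands, 11 passed the filter. In OVA-pulsed cells and on average 9 were higher, 1 was lower and 1 was not called. In unpulsed cells 8 were higher and 1 lower. Of all tested genes, 25.1% were higher in OVA-pulsed cells, 24.5% in unpulsed cells and 31.3% on average. The list was chosen with earlier results of these data known, so these counts are a description. The median averaged log2 fold change was 1.29. Among the ligands of Ccr1, Ccl3 rose from 42.7 to 478 CPM (log2 fold change 3.41, standard error 0.15, edgeR adjusted p = 2.0e-08) and Ccl5 from 72.9 to 673 CPM (3.15, 0.31, adjusted p = 8.0e-06). Ccl9 and Ccl7, which Ccr2 also binds, rose by 0.89 and 0.72, and Ccl6 fell by 0.94 on the log2 scale, from 53.9 to 28.1 CPM (edgeR adjusted p = 0.0021, 0.0035 and 0.00017). In unpulsed cells Ccl7 was not called (0.55, adjusted p = 0.084).

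The Ccr2 ligands Ccl12 and Ccl2 were higher by 1.97 (standard error 0.12) and 0.56 (0.09) on the log2 scale, with edgeR adjusted p-values of 1.9e-07 and 0.00042, while Ccr2 itself had at most 12 counts. Both interferon-induced ligands of Cxcr3 that were tested rose, Cxcl10 from 8.29 to 57.2 CPM (2.69, 0.23, edgeR adjusted p = 2.5e-06) and Cxcl9 from 1.13 to 2.74 CPM (1.29, 0.16, 3.7e-05). Cx3cl1, or fractalkine, rose with its receptor, from 29.6 to 113 CPM (1.92, standard error 0.11, edgeR adjusted p = 1.3e-07), and its CPM in EKO-labelled libraries was 90.2 to 153 against 23.9 to 37.5 in CtrV libraries. Ccl25, the ligand of Ccr9, was not called (-0.20, interval -0.51 to 0.12, adjusted p = 0.26). The ligand of Cxcr4, Cxcl12, and chemerin, encoded by Rarres2, were read at most 3 times in any library. As in Ccrl2, EKO-labelled replicate 1 was below replicates 2 and 3 in Ccl3, at 280.0 and 287 against 485 to 658 CPM, and in Cxcl10, at 27.1 and 33.1 against 60.5 to 83.0 CPM. In Ccl5 and Cx3cl1 it was instead above them, at 867 and 1160.1 against 384 to 652 CPM and at 117 and 153 against 90.2 to 114 CPM.

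**Figure D5:**
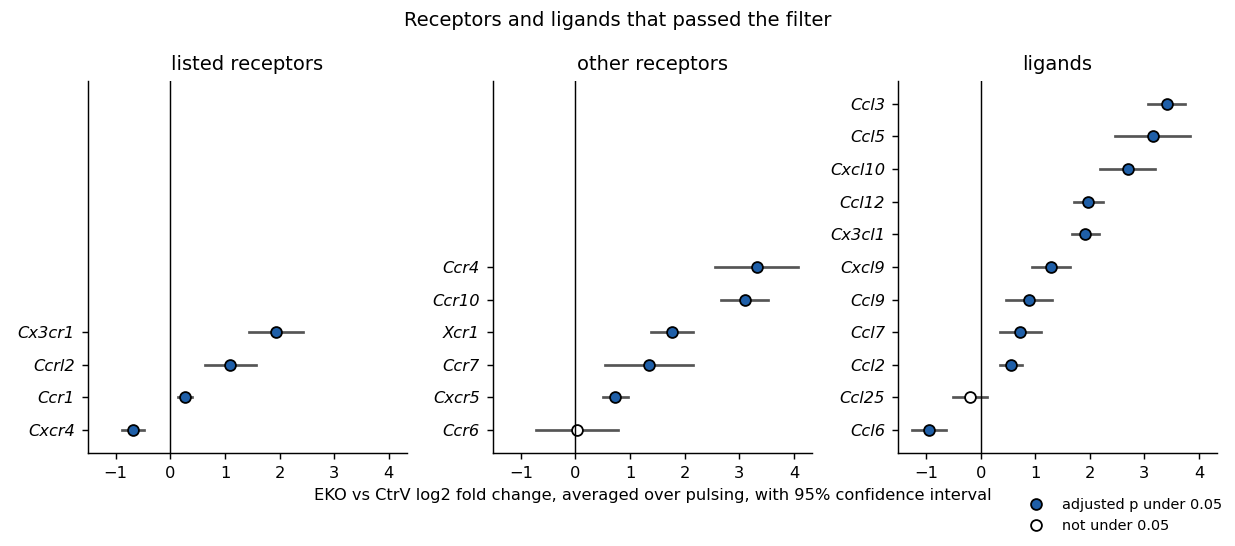
Log2 fold change of the EKO-labelled line over CtrV, averaged over pulsing, with 95% confidence intervals, for the tested receptors and ligands; filled points had an edgeR adjusted p under 0.05. Values run from -0.69 to 1.94 in the listed receptors, from 0.03 to 3.32 in the other receptors and from -0.94 to 3.41 in the ligands.

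Downstream of the receptors, 28 of 30 genes for G protein subunits, receptor kinases, arrestins, regulators of G protein signalling and effectors of migration passed the filter. On average 12 were higher, 14 lower and 2 not called, with a median log2 fold change of -0.06. In OVA-pulsed cells 10 were higher and 10 lower, and in unpulsed cells 11 and 10. Of all tested genes, 31.3% were higher and 29.1% lower on average. These shares were 25.1% and 21.9% in OVA-pulsed cells, and 24.5% and 21.9% in unpulsed cells. The largest rise was that of Rgs1, which shortens the signal of chemokine receptors by speeding GTP hydrolysis, from 3.28 to 20.5 CPM (2.62, standard error 0.24, edgeR adjusted p = 4.4e-06). Grk3, a kinase that desensitizes receptors, rose by 1.16 (0.06, adjusted p = 4.1e-08) and Rac2, a GTPase of the migrating leukocyte front, by 0.56 (0.04, 5.1e-07). Another receptor kinase, Grk5, fell by 1.44 (standard error 0.05, edgeR adjusted p = 1.8e-09), from 44.3 to 16.4 CPM. Rgs3, a further regulator of G protein signalling, fell by 0.85 (0.04, adjusted p = 2.7e-08), and Plcb3, a phospholipase activated by G proteins, by 0.72 (0.07, 7.9e-06). Members of the same class thus differed in direction, as the tested genes did as a whole.

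Genes whose pattern over the 12 libraries was most like that of a receptor were sought for Ccrl2 and Cx3cr1, whose averaged log2 fold changes were at least 1. Likeness was the root-mean-square difference of log2 CPM after centring. For Ccrl2, whose own values spread by 0.657 around their mean, Igtp, an immunity-related GTPase, and Trim30b, of the tripartite motif family, differed by 0.154 and 0.157. Igtp ranged from 47.7 to 94.9 CPM in EKO-labelled and from 31.5 to 42.3 CPM in CtrV libraries, and Trim30b from 18.7 to 37.9 and from 12.7 to 18.6 CPM. For Cx3cr1, with a spread of 0.917, Rab20, a small GTPase of endocytic membranes, differed by 0.211 and Gbp4, a guanylate-binding protein, by 0.229. Rab20 ranged from 11.0 to 15.0 CPM in EKO-labelled and from 3.00 to 5.19 CPM in CtrV libraries, and Gbp4 from 48.1 to 60.3 and from 15.0 to 23.6 CPM. This is a description over 12 libraries in which the difference between the lines is shared.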

How the data were processed

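RNA of 12 Sp37A3 samples was sequenced after preparation with a stranded kit. Per the labels and the study's methods, the authors aligned reads to mm10 with STAR, sorted them with SAMtools and counted read ends on the merged exons of each Ensembl gene with featureCounts, and deposited the raw count of each gene in each library. For reads that fitted several places 1 location was kept. Whether strand was used in counting is not given in the sources used here.

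Groups followed the labels of line and pulse. Members and gene lists were chosen with earlier results of these data known. Genes that exceeded a log2 CPM of 0 in 2 or more libraries were tested with edgeR 4.0.16 in R 4.3.3 (TMM, quasi-likelihood fit as in version 3, terms for group and replicate number, all 12 libraries, Benjamini-Hochberg adjustment, threshold 0.05). The line comparison with OVA was checked on simulated counts, with 200 genes changed and libraries drawn independently. That check did not cover genes of low count, the other comparisons or libraries that deviate together. Same-numbered libraries deviated together in the line comparison with OVA (r = 0.45, 0.295 and 0.298) and in OVA within EKO-labelled cells (0.711, 0.357 and 0.424), but not in every pair of the other comparisons (-0.00915 to 0.385), over genes. Intervals are 95% confidence intervals. CPM per kb divides by the merged exon length of GENCODE (GRCm38), which also gave positions. Promoter windows are from RefSeq, where all 8 receptors were matched. Alternatives were other normalizations, DESeq2 1.42.0, limma voom 3.58.1, no expression filter, no replicate block, a fold limit, the compared libraries alone and each library left out. A fit of edgeR 4 and one without both libraries of EKO-labelled replicate 1 were chosen after seeing the data.

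Named genes were the 8 receptors, all tested genes of the other-receptor and ligand lists, the signalling genes that rose most and fell most (3 each), and the 2 tested genes nearest in pattern to each receptor with an absolute log2 fold change of at least 1. Neighbours on chromosome 9 ran from Lztfl1 to Ccr2, since Ccrl2, where the rule ended, lies elsewhere. A further receptor is not reported here. Untested receptors, ligands and markers named beside these were chosen after their values were seen.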

Additional observations from a re-analysis of the deposited data

How the results depend on the processing

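The line differences of the 4 tested receptors were given 260 values in all by the alternatives, of which 239 kept the direction and the call, 21 lost the call and 0 reversed. With an absolute log2 fold change of at least 1 required, 2 receptors (Ccrl2 and Cx3cr1) were called in OVA-pulsed cells, 2 in unpulsed cells and 2 on average, in place of 4. The share of all tested genes at this limit was not taken, and Cx3cr1 passed the filter only through its EKO-labelled libraries. The counts of called receptors are therefore a description. Leaving out each library gave 2 to 4 called receptors with OVA and 2 to 4 without OVA, and the calls lost were those of Ccr1 and Ccrl2. Upper-quartile normalization also ended the call of Ccr1 with OVA (0.20, edgeR adjusted p = 0.073). The cause was not tested. Without the replicate block, 3 receptors were called with OVA and 3 without OVA, Ccr1 being lost, and no other receptor call changed.

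Some of the differences that were not called changed sign: 12 of the values for OVA in CtrV cells, 5 for OVA in EKO-labelled cells and 15 for the dependence on pulsing. With each library left out, the dependence of the line difference on pulsing ran from -0.15 to 0.01 for Ccr1, from -0.44 to 0.34 for Ccrl2, from -0.14 to 0.14 for Cxcr4 and from -0.54 to 0.20 for Cx3cr1. For Cxcr4 it was -0.01 with limma voom, -0.0037 with no expression filter and -0.01 without the replicate block. The difference with OVA in CtrV cells ran from -0.09 to 0.05 for Ccr1, from -0.40 to 0.23 for Ccrl2 and from -0.23 to 0.51 for Cx3cr1. For Ccrl2 it was -0.01 with limma voom, -0.01 with the 6 compared libraries alone and -0.0039 without both libraries of EKO-labelled replicate 1. In EKO-labelled cells it ran from -0.43 to 0.22 for Ccrl2 and from -0.09 to 0.03 for Cx3cr1. Ccr2, Ccr9, Cxcr3 and Cmklr1 had at most 16 counts in any library, which limits the precision of their values.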

Other observations

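Ccr1, Ccr2 and Ccr9 lie in a cluster of receptor genes on chromosome 9 (GRCm38). From Lztfl1 to Ccr2, the 4 tested genes were all higher in the EKO-labelled line on average, as were 31.3% of all tested genes. Xcr1 passed the filter only through its EKO-labelled libraries, so the count is a description. Whether the sizes differed was not tested. Averaged over pulsing, Lztfl1, a regulator of transport to cilia, had a log2 fold change of 0.26 (edgeR adjusted p = 0.0030), Fyco1, an adaptor of autophagosome transport, of 0.90 (2.7e-07) and Xcr1 of 1.77 (6.5e-06). Ccr1 followed with 0.27 (edgeR adjusted p = 0.0024). Cxcr6, Ccr1l1, Ccr3 and Ccr2, which lie in the same stretch, had at most 2, 6, 5 and 12 counts in any library and were not tested. Ccr9 begins before Lztfl1 in the annotation and spans it, so it was not among the genes taken from Lztfl1 to Ccr2. It had at most 8 counts in any library and was not tested either.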
